A study of Homo sapiens with 6 samples.

Results

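A set of 10 genes of the transforming growth factor beta (TGF-beta) pathway were followed across all their probe sets in DLD1 cells exposed to SAH-BCL9B or to vehicle: the ligand genes TGFB1 and TGFB2, the receptor genes TGFBR1 and TGFBR2, the SMAD genes SMAD2, SMAD3 and SMAD7, the corepressor genes SKI and SKIL, and the target gene TGFBI. The members were taken as every probe set that names 1 of these 10 genes and no other gene, which gave 32 of the 54613 probe sets that are not array controls. No probe set named a member together with another gene. The readout was the log2 expression level of each probe set on an Affymetrix Human Genome U133 Plus 2.0 array.

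DLD1 is an established human colorectal adenocarcinoma line, and SAH-BCL9B is a stapled peptide modelled on the helix of BCL9 that binds beta-catenin. The treated group held 3 arrays of cells given 10 µM SAH-BCL9B for 12 h, and the control group 3 arrays of cells given the vehicle DMSO for 12 h. The labels call the cultures triplicates of 1 cell line, and nothing says that they were grown separately, so p-values measure the spread between these samples, which may be technical. No control peptide was among the samples. Every n below is 3 arrays per group.

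TGF-beta ligands are secreted in a latent form and, once released, bring together a type II and a type I receptor, which are serine/threonine kinases. The active type I receptor phosphorylates SMAD2 and SMAD3, which enter the nucleus with SMAD4 and regulate genes. SMAD7 blocks the receptor, and SKI and SKIL hold SMAD complexes in a repressed state. SMAD7, SKIL and TGFBI are themselves well known as genes that TGF-beta signalling induces, and the pathway restrains the growth of normal intestinal epithelium.

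Of the 32 member probe sets, 5 were lower and 1 was higher in SAH-BCL9B by limma with Benjamini-Hochberg adjustment over all 54613 probe sets, and 26 did not pass an adjusted p of 0.05. Over all probe sets 1.37% were lower and 1.12% higher by the same rule (2.5% in either direction). The members were chosen with earlier results of these data known, so the difference in share is not a test of the pathway. The lowered probe sets belonged to TGFB2 (3 of 5), SKIL (1 of 5) and TGFBI (its only one), and the raised one to TGFB1 (1 of 2). The 3 SAH-BCL9B arrays lay beyond the 3 vehicle arrays in 10 of the 32 probe sets, against 22% of all probe sets. The median log2 change was -0.07 over the 32 members and 0.01 over all probe sets. None of the 19 probe sets of TGFBR1, TGFBR2, SMAD2, SMAD3, SMAD7 and SKI passed by limma, and 1 of them, that of SMAD7, had an unadjusted p below 0.05 (0.0101). The share of all probe sets below that unadjusted cut was not computed. Counts at that cut, here and below, thus have no background share beside them.

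In 3 of the 4 genes with a probe set past the threshold, at least 1 probe set fell (in SKIL 1 of 5). For this reason the windows just upstream of the transcription start are shown for these 4 genes. Each holds the 250 bases before the start, from RefSeq on GRCh38.p14, read 5′ to 3′ on the gene's strand. They lie at chr19:41353923-41354172 on the minus strand for TGFB1, chr1:218345086-218345335 on the plus strand for TGFB2, chr3:170357465-170357714 on the plus strand for SKIL and chr5:136028738-136028987 on the plus strand for TGFBI. Capitals mark the letters TGACG on either strand, the short site that CREB and ATF factors are known to bind.
TGFB1: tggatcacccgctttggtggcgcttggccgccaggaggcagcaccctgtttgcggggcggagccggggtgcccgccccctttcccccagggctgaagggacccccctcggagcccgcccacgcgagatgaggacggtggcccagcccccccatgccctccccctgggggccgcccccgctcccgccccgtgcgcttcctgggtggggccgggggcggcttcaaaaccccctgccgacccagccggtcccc
TGFB2: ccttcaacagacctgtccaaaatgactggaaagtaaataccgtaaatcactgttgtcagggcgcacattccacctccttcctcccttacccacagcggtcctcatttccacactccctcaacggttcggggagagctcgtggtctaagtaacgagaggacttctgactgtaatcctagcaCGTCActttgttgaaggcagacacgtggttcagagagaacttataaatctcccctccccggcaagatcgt
SKIL: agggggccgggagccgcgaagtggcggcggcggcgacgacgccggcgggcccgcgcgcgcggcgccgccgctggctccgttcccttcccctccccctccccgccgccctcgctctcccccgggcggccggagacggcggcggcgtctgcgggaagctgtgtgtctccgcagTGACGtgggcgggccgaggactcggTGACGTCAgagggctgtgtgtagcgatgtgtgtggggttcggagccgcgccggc
TGFBI: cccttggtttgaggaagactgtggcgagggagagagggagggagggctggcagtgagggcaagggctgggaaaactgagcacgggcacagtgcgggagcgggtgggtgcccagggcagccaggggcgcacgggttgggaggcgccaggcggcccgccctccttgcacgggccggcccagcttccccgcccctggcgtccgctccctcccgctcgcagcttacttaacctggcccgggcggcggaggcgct

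Both strands of these windows were searched for the SMAD palindrome GTCTAGAC, its leading part GTCTAG, the TCF/LEF letters CTTTGAT and the AP-1 letters TGACTCA. None of the 4 windows held any of them. Shorter parts of the palindrome, such as GTCT, were not searched for, so their absence is not shown. Among 35116 RefSeq windows of the same 250 bases, 0.182% held GTCTAGAC, 4.92% GTCTAG, 2.26% CTTTGAT and 4.2% TGACTCA. The letters TGACG were added to the search after the sequences had been seen. They occur 1 time in the TGFB2 window and 3 times in the SKIL window, where the last 2 matches overlap in the full palindrome TGACGTCA. Of all windows, 21.2% hold at least 1 match to TGACG. The shares of windows with 3 matches or with TGACGTCA were not computed. The windows of TGFB1 and TGFBI lack TGACG. These matches describe letters, not bound factors. Of the 10 members, 9 had an entry, with 24 start sites in all, and SKI had none. Over the 24 windows, GTCTAG was found upstream of 1 start site each of TGFBR1 and TGFBR2, TGACTCA upstream of 1 start site of SMAD3, and TGACG upstream of 1 start site each of TGFB2, SKIL, TGFBR1 and SMAD3. The letters TGACG were thus in 4 of the 24 windows (16.7%, against 21.2% of all windows), of which those of TGFBR1 and SMAD3 belong to genes with no call.

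**Figure D1:**
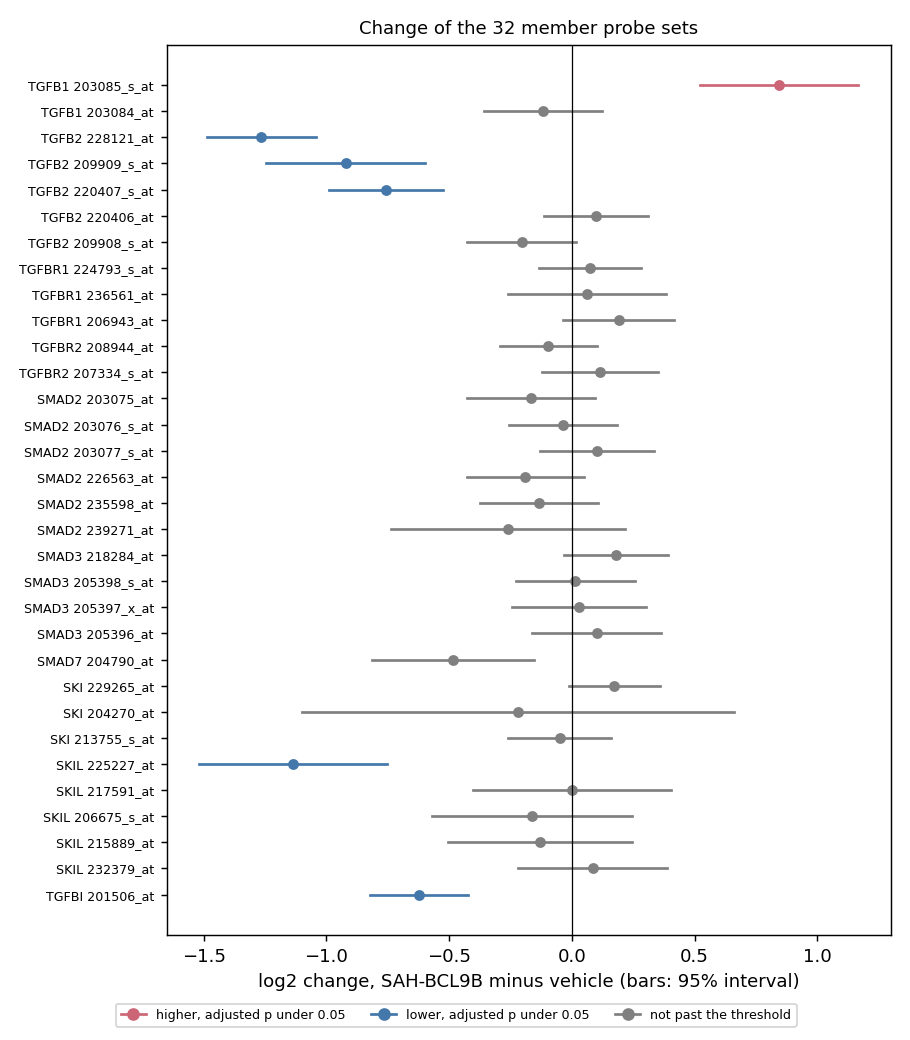
Log2 change of each of the 32 member probe sets (SAH-BCL9B minus vehicle, horizontal axis; points are changes and bars 95% intervals from limma, 3 arrays per group). The intervals of 3 TGFB2 probe sets, 1 SKIL probe set and TGFBI lie below 0 and that of 1 TGFB1 probe set above 0 among the 6 coloured as past the threshold. SMAD7 also lies below 0 (-0.48) but did not pass the adjusted threshold.

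Of the ligands, TGFB2 fell. It encodes TGF-beta 2, an isoform with low affinity for the type II receptor unless a coreceptor presents it. In probe set 228121_at the level was 8.76, 8.68 and 8.52 in vehicle and 7.46, 7.36 and 7.35 in SAH-BCL9B, on the log2 scale. The treated arrays lay close together, and all were below every control array. The log2 change was -1.26 ± 0.09 (SE), which is 2.40-fold lower (limma adjusted p = 0.00319), and only 47 other probe sets in the table had a more negative change. The call held without any 1 of the 6 arrays (highest adjusted p = 0.041).

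A second TGFB2 probe set, 209909_s_at, read 6.87, 7.03 and 6.50 in vehicle and 5.95, 5.89 and 5.80 in SAH-BCL9B. Its change was -0.92 ± 0.14 (SE, limma adjusted p = 0.0231). The third, 220407_s_at, read 6.08, 6.29 and 6.16 in vehicle and 5.35, 5.36 and 5.55 in SAH-BCL9B, a change of -0.76 ± 0.10 (adjusted p = 0.0155). In both, all treated arrays were below all control arrays. The remaining pair, 220406_at and 209908_s_at, lay below the array median of 6.58 to 6.62 in every array and did not pass. Their changes were 0.10 ± 0.09 and -0.20 ± 0.10 (adjusted p = 0.722 and 0.375). With all 5 probe sets averaged the change of TGFB2 was -0.61 (adjusted p = 0.0042). Leaving out any 1 array other than vehicle 3 or SAH-BCL9B 2 took 209909_s_at past 0.05 (adjusted p up to 0.12), and leaving out any 1 other than SAH-BCL9B 2 took 220407_s_at past it (up to 0.079).

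TGFB1, which encodes the most widely expressed isoform, moved the other way in 1 of its 2 probe sets. In 203085_s_at the level was 7.44, 7.76 and 7.33 in vehicle and 8.38, 8.50 and 8.18 in SAH-BCL9B. Every treated array was above every control array, and the log2 change was 0.84 ± 0.14 (SE), or 1.80-fold higher (limma adjusted p = 0.0278). In 203084_at it was 6.90, 6.89 and 7.15 in vehicle and 6.95, 6.84 and 6.80 in SAH-BCL9B. There the groups overlapped, and the change was -0.12 ± 0.10 with a 95% interval of -0.36 to 0.12 (adjusted p = 0.701). The interval of the first probe set, 0.52 to 1.16, does not meet that of the second, so the 2 probe sets of TGFB1 do not give the same change. Their mean gave 0.36 (adjusted p = 0.0468). The rise of 203085_s_at missed the threshold without any 1 array other than SAH-BCL9B 2 (adjusted p = 0.054 to 0.14 in those 5 fits) and without vehicle 3 and SAH-BCL9B 2 together (0.68, adjusted p = 0.073).

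**Figure D2:**
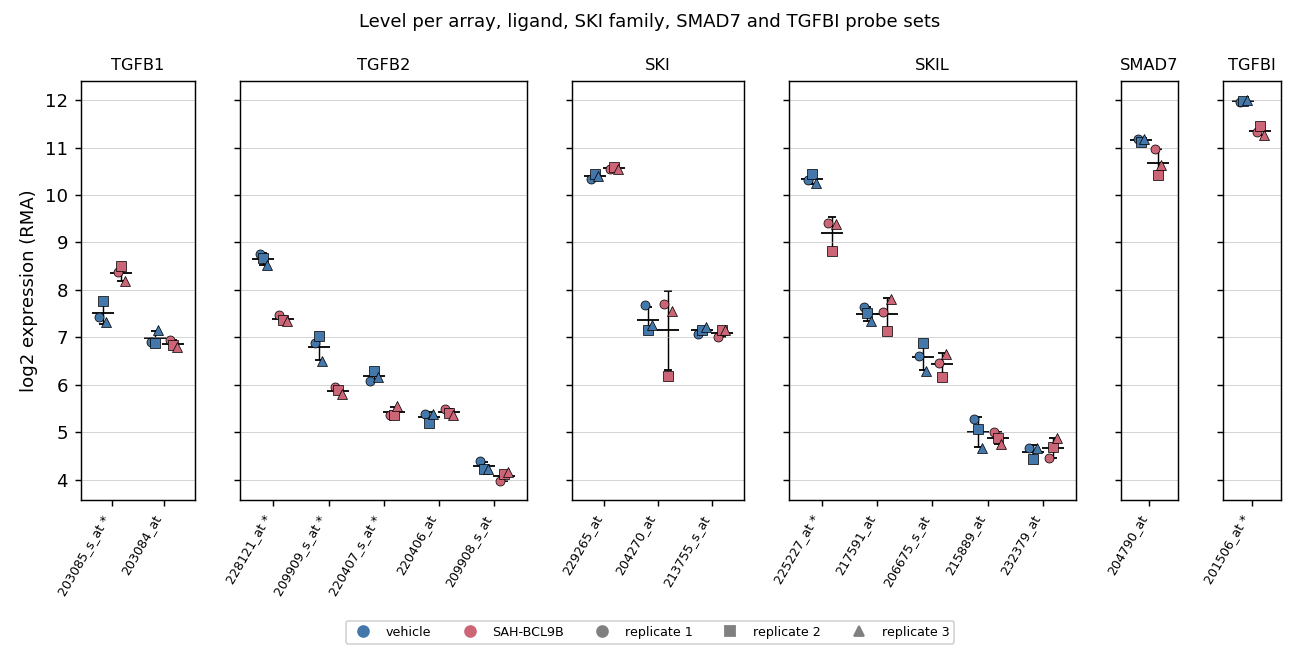
Log2 expression level per array (vertical axis) for every probe set of TGFB1, TGFB2, SKI, SKIL, SMAD7 and TGFBI, with vehicle in blue, SAH-BCL9B in red, marker shape for the replicate number, and dash and bar for the mean and SD of 3 arrays; asterisks mark probe sets past the adjusted p threshold of 0.05. All treated arrays lie below all controls in 228121_at, 209909_s_at, 220407_s_at and 209908_s_at of TGFB2, 225227_at of SKIL, 201506_at of TGFBI and 204790_at of SMAD7, and above them in 203085_s_at of TGFB1 and 229265_at of SKI; of these, 209908_s_at, 204790_at and 229265_at did not pass the threshold. Heights of different probe sets are not comparable.

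Neither receptor gene passed the test. TGFBR1 encodes the type I receptor, the kinase that phosphorylates SMAD2 and SMAD3. Its probe set 224793_s_at read 10.91, 10.94 and 10.83 in vehicle and 11.05, 10.86 and 10.98 in SAH-BCL9B, with overlapping groups and a log2 change of 0.07 ± 0.09 (SE, 95% interval -0.13 to 0.28). Probe sets 236561_at and 206943_at changed by 0.06 ± 0.14 and 0.19 ± 0.10 (limma adjusted p = 0.908 and 0.423). TGFBR2 encodes the type II receptor, which binds the ligand and switches on the type I receptor. Its probe set 208944_at read 11.64, 11.62 and 11.65 in vehicle and 11.53, 11.63 and 11.45 in SAH-BCL9B. The groups overlapped, and the change was -0.10 ± 0.08 with a 95% interval of -0.29 to 0.10. Its other probe set, 207334_s_at, was below the array median throughout and changed by 0.11 ± 0.10 (adjusted p = 0.704). All 5 receptor intervals lie within 0.5 log2 units of 0.

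The receptor-activated SMAD genes did not pass either. SMAD2 had 6 probe sets, of which 5 had a negative and 1 a positive change, from -0.26 to 0.10. Its probe set 203075_at read 11.80, 11.88 and 11.82 in vehicle and 11.85, 11.47 and 11.68 in SAH-BCL9B, so SAH-BCL9B 2 was the lowest array and the groups overlapped (-0.17 ± 0.11, SE, limma adjusted p = 0.577). The 4 probe sets of SMAD3 all had positive changes, from 0.01 to 0.18. In 218284_at the level was 9.33, 9.55 and 9.38 in vehicle and 9.64, 9.61 and 9.57 in SAH-BCL9B. The 3 treated arrays were just above the controls, and the change of 0.18 ± 0.09 did not pass (adjusted p = 0.411). SMAD3 probe set 205397_x_at carries the suffix that Affymetrix gives to probes that may bind other transcripts, and it changed by 0.03 ± 0.12. Of the 26 member probe sets that did not pass, 21 had a 95% interval within 0.5 log2 units of 0.

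**Figure D3:**
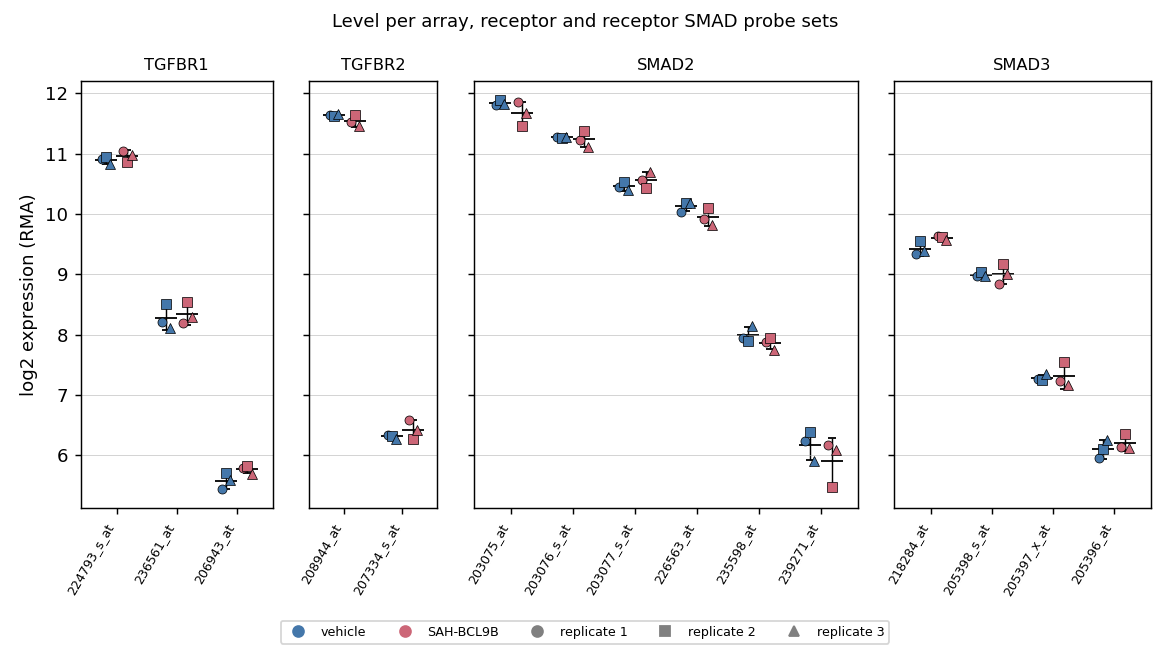
Log2 expression level per array (vertical axis) for every probe set of TGFBR1, TGFBR2, SMAD2 and SMAD3, with vehicle in blue, SAH-BCL9B in red, marker shape for the replicate number, and dash and bar for the mean and SD of 3 arrays. No probe set passed the adjusted threshold; the groups overlap in all but 218284_at of SMAD3.

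SMAD7, the inhibitory SMAD, was measured by 1 probe set, 204790_at. Its level was 11.18, 11.11 and 11.18 in vehicle and 10.98, 10.41 and 10.63 in SAH-BCL9B. All treated arrays were below all controls, but they spread more (SD 0.29 against 0.04). The log2 change was -0.48 ± 0.14 (SE), with a 95% interval of -0.82 to -0.15, and it did not pass after adjustment (limma adjusted p = 0.145). The change was negative in all 16 alternatives, with adjusted p between 0.062 and 0.38.

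The SKI family, which represses SMAD complexes and is degraded when TGF-beta signalling starts, split by gene and by probe set. SKIL, which encodes SnoN, read 10.32, 10.45 and 10.25 in vehicle and 9.41, 8.82 and 9.38 in SAH-BCL9B in probe set 225227_at. Every treated array was below every control array, with SAH-BCL9B 2 the lowest. The log2 change was -1.13 ± 0.16 (SE), or 2.19-fold lower (limma adjusted p = 0.0206), and -0.94 without SAH-BCL9B 2 (adjusted p = 0.0089). It missed the threshold without any other single array (adjusted p = 0.054 to 0.10).

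The other 4 probe sets of SKIL did not follow. Probe set 217591_at, above the array median throughout, read 7.64, 7.50 and 7.33 in vehicle and 7.53, 7.13 and 7.81 in SAH-BCL9B, a change of 0.001 ± 0.17 (SE, limma adjusted p = 0.999). The changes of 206675_s_at, 215889_at and 232379_at were -0.16 ± 0.18, -0.13 ± 0.16 and 0.09 ± 0.13, and the latter pair lay below the array median in every array. The 95% interval of 225227_at, -1.52 to -0.75, does not meet that of any of the other 4, of which the lowest bound is -0.57. With all 5 averaged, SKIL changed by -0.27 and did not pass (adjusted p = 0.25).

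SKI, the founding member of that family, gave no call in 3 probe sets. In 229265_at the level was 10.33, 10.44 and 10.40 in vehicle and 10.54, 10.59 and 10.56 in SAH-BCL9B. The treated arrays were all above the controls, and the change of 0.17 ± 0.08 (SE) did not pass (limma adjusted p = 0.368). In 204270_at the level was 7.68, 7.15 and 7.26 in vehicle and 7.70, 6.18 and 7.56 in SAH-BCL9B, so that SAH-BCL9B 2 alone was low. Its change was -0.22 ± 0.38 with all arrays and 0.26 without SAH-BCL9B 2, and neither passed (adjusted p = 0.873 and 0.45). Probe set 213755_s_at changed by -0.05 ± 0.09.

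TGFBI, which encodes a secreted matrix protein that TGF-beta induces, fell. Its single probe set, 201506_at, read 11.95, 11.98 and 12.00 in vehicle and 11.33, 11.46 and 11.27 in SAH-BCL9B. The controls lay close together and all treated arrays were below them. The log2 change was -0.62 ± 0.09 (SE), or 1.54-fold lower (limma adjusted p = 0.0176). The size varied from -0.68 to -0.58 over the 16 alternatives, but the call was lost without any 1 array other than SAH-BCL9B 2 (adjusted p = 0.066 to 0.097).

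**Figure D4:**
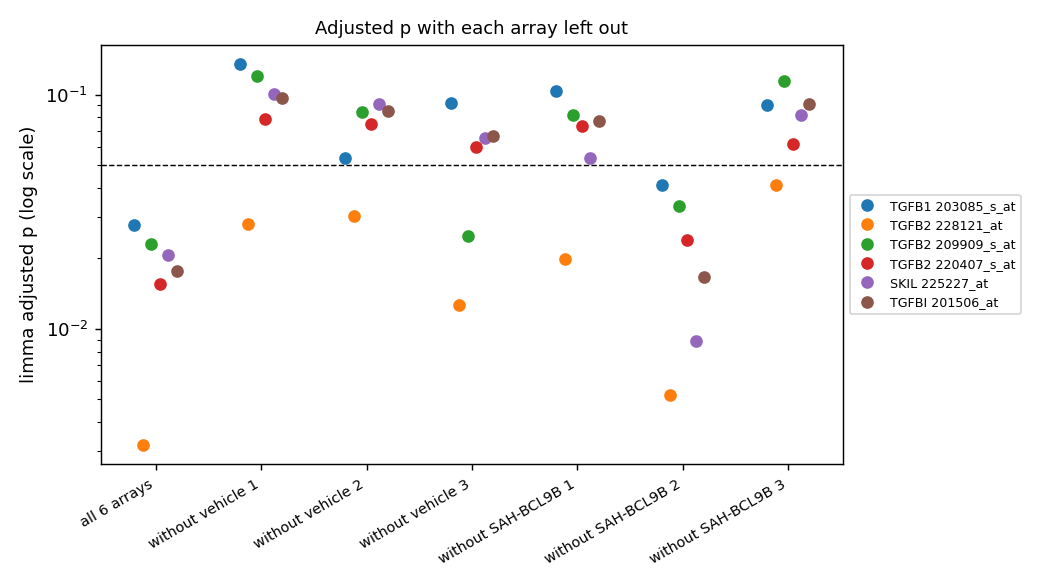
Limma adjusted p (log axis) of the 6 member probe sets past the threshold, with all 6 arrays and with each array left out in turn; the dashed line is 0.05. TGFB2 228121_at stays below the line in every fit (highest 0.041), and all 6 stay below it without SAH-BCL9B 2.

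Beyond the members, 74 further genes of the pathway were listed, of which 70 had a probe set naming them alone. Each was read from the probe set with the highest mean. Of these 70, 3 rose, 4 fell and 63 did not pass, and their median log2 change was -0.001. By the same rule 1.61% of 19775 genes rose and 1.92% fell (3.53% in either direction), with a median of 0.02. The lists, too, were chosen with earlier results of these data known. Without vehicle 1 0 of the 70 rose and 3 fell, and without any 1 of the other arrays save SAH-BCL9B 2, 1 rose and 3 fell.

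Among 15 genes of ligands, latency and activation, 1 rose and 14 did not pass (median log2 change 0.01). ITGB8, an integrin subunit that takes part in activating latent TGF-beta, read 8.71, 8.80 and 8.53 in vehicle and 9.38, 9.18 and 9.35 in SAH-BCL9B. The groups were apart, with a log2 change of 0.62 ± 0.10 (SE, limma adjusted p = 0.0305). It had 5 probe sets, 1 of them with a negative change, and their average missed the threshold (0.35, adjusted p = 0.061). ITGB8 also missed it without any 1 array other than SAH-BCL9B 2 (highest adjusted p = 0.14). None of 8 receptor and pseudoreceptor genes passed by limma (median 0.03). An unadjusted limma p below 0.05 was found for 2, the type I activin receptor gene ACVR1B (-0.23 ± 0.09) and the pseudoreceptor gene BAMBI (0.22 ± 0.08). Both were chosen after their values were seen. The coreceptor gene TGFBR3, which presents TGF-beta 2, changed by 0.12 ± 0.10 (adjusted p = 0.666).

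Among 23 SMAD partners and regulators, 1 rose and 22 did not pass (median log2 change 0.06). FKBP1A, whose protein FKBP12 binds the type I receptor and keeps it inactive, read 9.83, 10.10 and 10.16 in vehicle and 10.81, 11.26 and 10.93 in SAH-BCL9B. All treated arrays were above the controls, and the log2 change was 0.97 ± 0.14 (SE, limma adjusted p = 0.022). In vehicle alone the brightest FKBP1A probe set was 200709_at (mean 10.11, against 10.03 for the one read here, 214119_s_at). It changed by 0.46 ± 0.10 and did not pass (limma adjusted p = 0.0568). All 4 FKBP1A probe sets had a positive change and 3 passed. The call of 214119_s_at was lost without any 1 array other than SAH-BCL9B 2 (highest adjusted p = 0.10). SMAD4, the common partner of the receptor SMADs, changed by 0.21 ± 0.13 (95% interval -0.08 to 0.50) and did not pass (adjusted p = 0.503).

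Among 19 genes that TGF-beta is known to induce, 1 rose, 2 fell and 16 did not pass (median log2 change -0.05). DAPK1, a death-associated kinase gene, read 10.45, 10.51 and 10.47 in vehicle and 9.60, 9.65 and 9.57 in SAH-BCL9B. The arrays of each group lay close together, and the log2 change was -0.87 ± 0.08 (SE, limma adjusted p = 0.0048). The other DAPK1 probe set, 211214_s_at, lay below the array median in every array and changed by -0.17 ± 0.15 (adjusted p = 0.685). TGFB1I1, which encodes the focal adhesion protein HIC-5, changed by -0.70 ± 0.11 (adjusted p = 0.0265) and missed the threshold without any 1 array other than SAH-BCL9B 2 (highest 0.14). BHLHE40, a transcriptional repressor that many stimuli induce, rose by 0.96 ± 0.10 (adjusted p = 0.00887) and missed the threshold only without vehicle 1 (0.067). The other BHLHE40 probe set, 201169_s_at, changed by 0.59 ± 0.16 and did not pass (adjusted p = 0.109). CCN2, a matricellular protein gene, and JUNB, an AP-1 subunit gene, are early targets, and they had changes of -0.34 ± 0.15 and -0.16 ± 0.09 (adjusted p = 0.333 and 0.476).

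Among 5 genes that TGF-beta is known to repress in epithelial cells, 2 fell and 3 did not pass (median log2 change -0.28). The list split by direction, with 2 positive changes, and all 5 genes had an unadjusted limma p below 0.05. No background share was computed for that cut. The 3 without a call were named after their values were seen. ID2 changed by -0.28 ± 0.12, MYC by 0.31 ± 0.10 and CDC25A by 0.36 ± 0.11 (SE, limma adjusted p = 0.323, 0.169 and 0.145). ID1 and ID3 encode inhibitors of basic helix-loop-helix factors, and bone morphogenetic proteins are known to induce both. ID1 read 13.91, 14.05 and 14.16 in vehicle and 12.53, 12.50 and 12.26 in SAH-BCL9B, a log2 change of -1.61 ± 0.11 (SE, limma adjusted p = 0.00224). ID3 changed by -2.26 ± 0.10 (adjusted p = 0.000823). Both passed in all 16 alternatives.

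**Figure D5:**
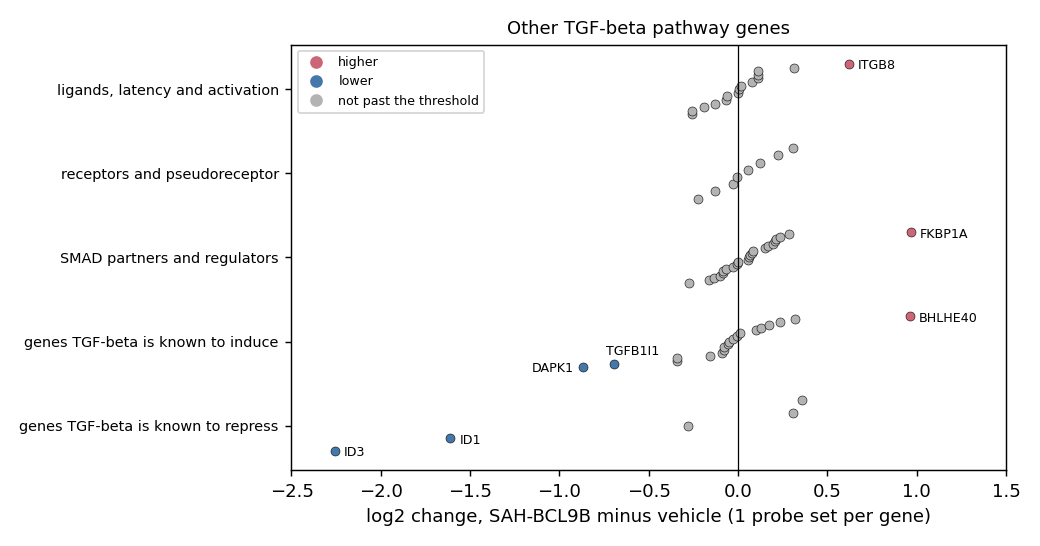
Log2 change (SAH-BCL9B minus vehicle, horizontal axis) of the 70 other TGF-beta pathway genes, 1 probe set per gene, in 5 lists; each point is a gene, and the named ones passed an adjusted p of 0.05. The points cluster around 0 (median -0.001), with ITGB8, FKBP1A and BHLHE40 to the right and ID3, ID1, DAPK1 and TGFB1I1 to the left.

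The arrays had medians of 6.58 to 6.62. All 9 colorectal epithelial markers lay above the array median in every array, as did 3 of 7 fibroblast, 2 of 5 immune and 1 of 4 endothelial markers. Of the epithelial markers the keratin gene KRT8 rose (0.50 ± 0.08, SE, limma adjusted p = 0.0305) and the villin gene VIL1 fell (-0.86 ± 0.10, adjusted p = 0.00989), and their part in the members' changes was not tested. The mean level of 7 fibroblast markers was 6.27 to 6.44 in vehicle and 6.25 to 6.47 in SAH-BCL9B, and none of the 16 fibroblast, immune or endothelial markers passed by limma (0 with an unadjusted p below 0.05 either). SAH-BCL9B 2 stood apart from the other treated arrays: it was the one farthest from the other two in 18 of the 32 member probe sets and in 50% of all probe sets. Its 3′ minus 5′ difference of the ACTB control probe sets was 0.74, against 1.20 to 1.38 in the other 5 arrays. With that difference as a covariate, 5 member probe sets were lower and 1 was higher, and without vehicle 3 and SAH-BCL9B 2 the counts were 5 and 0. Leaving out vehicle 1, vehicle 2, SAH-BCL9B 1 or SAH-BCL9B 3 in turn, 1 member probe set was lower and 0 were higher, and without vehicle 3, 2 and 0. In bulk RNA, a change in every cell and a change in some cells cannot be told apart.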

How the data were processed

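The authors deposited log2 expression values, with 54675 probe sets in rows and 6 arrays in columns. Per the submitters' processing notes, RMA and affy were used, without versions given. That the scale is log2 follows from the range of the deposited values, 3.26 to 15.8. RMA normalizes between arrays, so a shift common to nearly all genes is lost, and it shrinks changes of dim probe sets. Signal over background is unknown here. Gene names came from GEO's platform annotation: 41091 named 1 gene, 1801 several, 11721 none, and 62 were controls. Of those naming 1 gene, 41037 matched RefSeq by Entrez ID.

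The 54613 other probe sets were tested with limma 3.58.1 under R 4.3.3, by lmFit and eBayes on the 2 groups with neither covariates nor a filter, with Benjamini-Hochberg adjustment and a threshold of 0.05. Errors are moderated standard errors, and intervals are 95%. The package data.table (version 1.17.8) read the values, and matplotlib 3.10.9 under Python 3.11.15 drew the plots. In simulated data with 54613 probe sets, 55 of 100 changed by 1 log2 unit and 3 of 100 changed by 0.5 were recovered, with 2 false calls. A change that did not pass may thus be real. The simulation changed 200 probe sets, whereas 1363 passed in the data, so the share recovered in the data may differ. RNA quality was compared by the ACTB and GAPDH 3′ minus 5′ differences (two-sided exact permutation p = 0.4 and 0.2; smallest possible 0.1 with 3 arrays per group).

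The members and lists were chosen with earlier results of these data known. Named were all member probe sets, SMAD4, TGFBR3, CCN2, JUNB and ID3 whatever their result (1 further gene so listed is not analysed here), and in each list at most 6 members past the threshold per direction. The 16 alternatives were a block for the replicate number, a filter on low values, 1 probe set per gene, the mean of a gene's probe sets, arrays centred on their medians, array weights, quantile normalization run again, a robust fit with a variance trend, the ACTB covariate, each array left out and vehicle 3 with SAH-BCL9B 2 left out.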

Additional observations from a re-analysis of the deposited data

How the results depend on the processing

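Over the 43 named probe sets there were 633 refits, of which 554 kept direction and side of the threshold, 49 kept direction but lost the call and 30 changed sign. None of those 30 was of a probe set that had passed. Of the 32 member probe sets, 5 were lower and 1 higher. With each array left out, 1 to 5 were lower and 0 to 1 higher, and of the 70 pathway genes 3 to 4 were lower and 0 to 4 higher. Of all probe sets 1363 passed, against 97 to 1478 with each array left out, 836 without vehicle 3 and SAH-BCL9B 2 (then 0 members higher), 2725 with the filter on low values, 2923 with the robust fit and variance trend and 2738 with array weights. The filter left 21 member probe sets, with 3 lower. Of the 10 member genes, 3 were lower with 1 probe set per gene and 2 with the mean of a gene's probe sets, where fewer members were tested.

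The replicate numbers did not pair the arrays (correlation of same-numbered deviations 0.41, 0.06 and -0.31), and not every array correlated best with its own number. With the replicate block 171 probe sets passed, and 1 member probe set was lower and 1 higher. These were TGFB2 228121_at (limma adjusted p = 0.0258) and TGFB1 203085_s_at (0.0499), and the other lowered member probe sets lost their call.

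With array weights the log2 change was -0.013 for TGFBR1 236561_at, -0.029 for SMAD3 205398_s_at, -0.043 for SMAD3 205397_x_at and 0.037 for SKI 204270_at. With the ACTB covariate these were -0.031, -0.065, -0.10 and 0.31, with -0.0018 for SMAD3 205396_at and 0.0083 for SKIL 206675_s_at. Without vehicle 3 and SAH-BCL9B 2 they were -0.12, -0.079, -0.059 and 0.21. The mean of a gene's probe sets gave 0.0095 for TGFBR2 and -0.032 for SKI. Median centring gave -0.00029 for SKIL 217591_at, and quantile normalization run again -0.0014 for SMAD3 205398_s_at. With each array left out the change ran from -0.040 to 0.18 for TGFBR1 236561_at, -0.11 to 0.026 for SMAD2 203076_s_at, -0.071 to 0.097 for SMAD3 205398_s_at, -0.089 to 0.11 for SMAD3 205397_x_at and -0.49 to 0.26 for SKI 204270_at. It ran from -0.090 to 0.0018 for SKI 213755_s_at, -0.16 to 0.18 for SKIL 217591_at, -0.30 to 0.014 for SKIL 215889_at and -0.016 to 0.19 for SKIL 232379_at. The cause was not tested.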

Other observations

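Probe sets other than the one with the highest mean passed in 2 regulators of the pathway that gave no call above. Both were picked after their values were seen, from all probe sets of the listed genes. Over all probe sets of the array, 2.5% passed in either direction. TGIF1, a homeobox corepressor of SMAD2, rose in 1566901_at, from a mean of 9.65 in vehicle to 10.73 in SAH-BCL9B (log2 change 1.08 ± 0.08, SE, limma adjusted p = 0.00319). Its brightest probe set, 203313_s_at, changed by 0.23 ± 0.10 (adjusted p = 0.298), and 244858_at by -0.01 ± 0.11. PPM1A, a phosphatase reported to act on SMAD2 and SMAD3, fell in 227728_at (-0.46 ± 0.08, adjusted p = 0.0382), which was 1 of its 6 probe sets. The other 5 did not pass: 229027_at, 210407_at and 235344_at changed by -0.26 ± 0.15, -0.25 ± 0.37 and -0.32 ± 0.11, and 203966_s_at and 231370_at by 0.20 ± 0.08 and 0.16 ± 0.10.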
